A study of Homo sapiens with 8 samples.

Results

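Mitophagy removes damaged or surplus mitochondria by enclosing them in autophagosomes, and 9 genes that encode mitophagy receptors and adaptors, of the 54261 genes counted, are described here: BNIP3, BNIP3L, FUNDC1, BCL2L13, FKBP8, PHB2, PINK1, OPTN and CALCOCO2. They were found by gene symbol, and all 9 were present in the table of counts. The set was selected on measured values, namely the near absence of BNIP3 reads in DLD1 and HCT8 cells and the levels of the other receptors under hypoxia, so the values of the 9 genes under hypoxia and the level of BNIP3 in each line are given as descriptions without a test. The comparison of the other 8 genes between colorectal carcinoma (CRC) and normal lines was not the stated basis of that choice and was tested. It is not fully independent of the choice, because it shares the untreated CRC libraries and earlier results of these data were known.

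Total RNA depleted of ribosomal RNA was sequenced in 8 libraries from 5 human cell lines. NCM460 and HIEC6, which the labels give as normal intestinal epithelial lines, formed the normal group (n = 2), untreated DLD1, HCT116 and HCT8 formed the CRC group (n = 3), and the same 3 CRC lines after hypoxia treatment formed the hypoxia group (n = 3). All lines were grown at passage P5 in DMEM with fetal bovine serum under 5% CO2, and the oxygen level and the duration of hypoxia are not given in the sources used here, where the study's text does not describe the hypoxia libraries. Each line contributed 1 library per condition, so the spread within a group and all p-values reflect differences between lines and not between repeated cultures of 1 line.

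Total counts ranged from 45519306 to 57374239 per library. A count of 3, the upper limit that a count of 0 allows, corresponded to 0.0523 to 0.0659 CPM (counts per 1000000 counts of the library), and this limit and the intervals of ratios below reflect counting error alone. The run labels of the untreated and the hypoxic CRC samples did not overlap, so run and treatment cannot be told apart. Across genes, log2(CPM + 1) of the library labelled NCM460 correlated with that of untreated HCT116 at r = 0.994 and with that of HIEC6 at 0.924. An untreated library and the hypoxia library of the same line correlated at 0.994 for DLD1, 0.98 for HCT116 and 0.989 for HCT8. Untreated HCT116 was thus closer to NCM460 than to its own hypoxia library. Untreated DLD1 and HCT8 correlated at 0.973, above DLD1 with HCT116 (0.948) and HCT116 with HCT8 (0.953). Whether NCM460 and HCT116, or DLD1 and HCT8, count as independent lines was not tested. HIEC6 had little RNA of the epithelial adhesion molecule gene EPCAM (0.18 CPM, against 275 to 651 CPM in the other 4 untreated lines) and 1223 CPM of the mesenchymal filament gene VIM, although the keratin gene KRT8 was at 4290 CPM. The mesenchymal genes FN1 (117 CPM), COL1A1 (46.0), TWIST1 (5.31) and PDGFRB (8.61) were also highest in HIEC6 of the untreated lines. In contrast, COL1A2 (0.458) and SPARC (0.247) were lowest there. Group comparisons are therefore also given without each of the normal libraries. Of 12 epithelial markers, 8 to 12 exceeded 3 counts in each library, with summed levels of 6030 and 8020 CPM in the normal lines, 4960 to 11900 CPM in untreated CRC lines and 6080 to 14500 CPM under hypoxia. At least 1 CPM was reached by 5 of the 12 in HIEC6 and by 9 to 11 in the other untreated lines. The HIEC6 sum came mainly from KRT8 and KRT18 (3725 CPM). Of 11 mesenchymal markers 7 to 11 exceeded 3 counts, with sums of 107 and 1400, 12.7 to 44 and 25.4 to 173 CPM in these groups. The extraction label names brain tissue, and of 9 neural markers 4 to 7 exceeded 3 counts, with sums of 21.9 and 168, 80.2 to 210 and 78.5 to 300 CPM. The part of these marker differences in the results below was not tested.

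BNIP3 and its paralog BNIP3L (also called NIX), FUNDC1, BCL2L13 and FKBP8 sit in the outer mitochondrial membrane and bind LC3 family proteins of the autophagosome directly through an LC3-interacting region. PHB2 is an inner membrane protein that becomes exposed when the outer membrane ruptures. In the other arm, the kinase PINK1 accumulates on damaged mitochondria and phosphorylates ubiquitin, and OPTN and CALCOCO2 (also called NDP52) link the ubiquitin chains to LC3. BNIP3 and BNIP3L are known targets of the hypoxia-inducible factor HIF-1, which binds DNA at short cores such as ACGTG.

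The promoter of BNIP3 is shown because HIF-1 binding there is the textbook route of its induction by hypoxia, and that of DPYSL4, a neighbour of BNIP3 on chromosome 10, because this gene shared the lack of reads in DLD1 and HCT8 described below. Both come from the RefSeq promoter table and were placed by an exact, unique match at chr10:133795472-133795677 (minus strand) and chr10:134000202-134000451 (plus strand) of GRCh37. For BNIP3 only the bases upstream of the annotated transcript are printed. Capitals mark the ACGTG form of the HIF core or its reverse complement CACGT, searched on both strands, which overlap where the bases read CACGTG. Other forms of the core were not searched, so the counts of matches below cover this form only.
BNIP3: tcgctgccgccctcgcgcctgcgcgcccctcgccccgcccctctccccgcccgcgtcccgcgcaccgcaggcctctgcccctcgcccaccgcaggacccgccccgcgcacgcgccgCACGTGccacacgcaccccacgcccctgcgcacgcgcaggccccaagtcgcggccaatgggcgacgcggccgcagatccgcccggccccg
DPYSL4: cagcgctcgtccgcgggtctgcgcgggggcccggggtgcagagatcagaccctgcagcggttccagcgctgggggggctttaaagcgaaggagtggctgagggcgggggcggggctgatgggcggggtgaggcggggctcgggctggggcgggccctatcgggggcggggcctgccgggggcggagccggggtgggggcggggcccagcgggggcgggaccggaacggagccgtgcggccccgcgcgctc
In the 250 bases before the start, BNIP3 held 2 matches, which are the 2 strands of 1 palindrome, whereas 18.5% of 35116 RefSeq promoters held at least 1 match. The table held promoters of 6 of the 9 genes. Among them CALCOCO2 had 1 match and FUNDC1, BCL2L13, PHB2 and OPTN had 0, and DPYSL4 had 0. The BNIP3 window was also rich in CpG, the dinucleotide that DNA methylation acts on, with 41 CpG (98.3rd percentile of all promoters), and that of DPYSL4 had 31 (89.1st percentile), against a median of 11. This was not particular to these genes. Neighbours with reads in DLD1 and HCT8 held 34 (PPP2R2D, 93.2nd percentile), 30 (LRRC27, 87.6th), 18 (JAKMIP3) and 13 (STK32C). DNA methylation was not measured in these libraries, and a match of letters describes the reference sequence only.

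BNIP3 encodes a BH3-only type protein of the outer membrane that recruits autophagosomes when oxygen is low. The gene (ENSG00000176171) lies on the minus strand of chromosome 10 from 133781188 to 133795471 (GRCh37). Its count was 882 in NCM460, 2252 in HIEC6, 969 in HCT116 and 0 in both untreated DLD1 and HCT8. Under hypoxia it was 10624 in HCT116, 5 in DLD1 and 1 in HCT8. BNIP3 RNA was therefore readily counted in 3 of the 5 untreated lines and was near or below the limit of detection in the other two in both conditions.

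Scaled to library size, BNIP3 was at 17.9 CPM in NCM460, 39.7 in HIEC6 and 18.6 in HCT116, and at 192 CPM in HCT116 under hypoxia. HCT116 and NCM460, labelled as different groups but correlated at 0.994 across genes, had nearly the same level (ratio 1.03, 95% interval 0.943 to 1.13). This likeness is not taken as independent agreement of a normal and a CRC line. HIEC6 exceeded HCT116 by 2.14-fold (1.99 to 2.31). Untreated HCT116 was 317-fold above the 3-count limit in DLD1 and 326-fold above that in HCT8. A bulk library cannot tell apart fewer cells with BNIP3 RNA and less BNIP3 RNA per cell.

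The BNIP3 level of HCT116 was 10.3-fold higher in the hypoxic than in the untreated library (9.68 to 11.1, exact binomial interval of counts), and the hypoxic HCT116 library was 4.83-fold above HIEC6, the highest untreated library. In DLD1 under hypoxia BNIP3 was at 0.0872 CPM (5 counts against 0), and the lower 95% bound of the ratio, 0.818, lay below 1, so a difference was not detectable at this depth. In HCT8 both libraries were at or below 3 counts and no fold is given. Hypoxic HCT116 stood 2201-fold (943 to 6779) above hypoxic DLD1, whereas the ratio of hypoxic DLD1 to hypoxic HCT8 was 3.97 with an interval that includes 1 (0.444 to 188). The same 2 lines with almost no BNIP3 RNA had a hypoxia response in other genes, which is given with the HIF targets below.

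Few reads were assigned to copies of BNIP3. The table held 40 rows whose symbols mark BNIP3 pseudogenes, 6 of them with any count, and their summed count was 4 in DLD1, 5 in HCT8, 7 and 10 in the same lines under hypoxia, and 1 to 18 in the other 4 libraries. The largest single pseudogene count was 15. How reads with several matches were counted is not given in the sources used here, so these rows are uncertain.

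**Figure D1:**
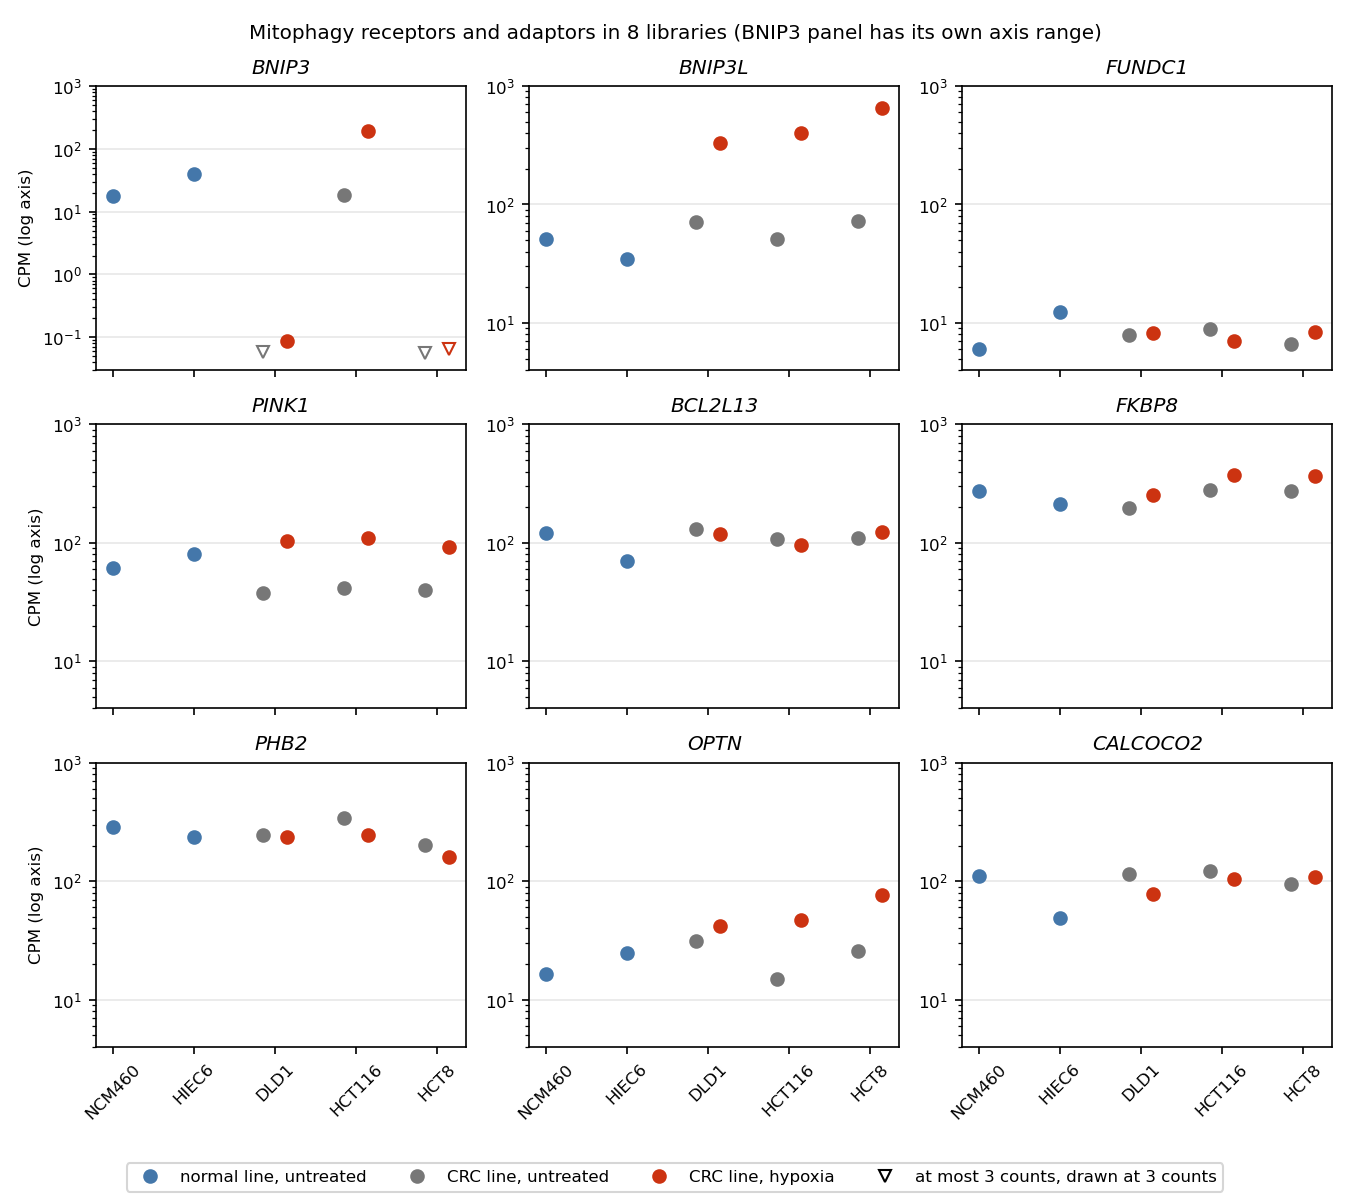
CPM of the 9 genes (log axes, 1 panel per gene) in the 5 lines, with normal lines in blue, untreated CRC lines in grey and CRC lines under hypoxia in red, 1 library per point and no error bars. BNIP3 spans from at most 3 counts (open triangles, drawn at 3 counts) to 192 CPM. Each hypoxic BNIP3L, PINK1 and OPTN point lies above every untreated point of that gene, a description given without the share of all genes that do so.

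BNIP3L encodes the closest relative of BNIP3, known for clearing mitochondria from maturing red cells. It was at 51.5 CPM in NCM460 and 34.4 in HIEC6, and at 71.8, 50.6 and 71.8 CPM in untreated DLD1, HCT116 and HCT8. The hypoxic libraries of the same CRC lines held 331, 398 and 654 CPM. The 2 lines without BNIP3 reads had the highest untreated BNIP3L levels of the 5, and HCT8, with 1 BNIP3 count, had the highest BNIP3L level of all 8 libraries.

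The BNIP3L level under hypoxia was 4.62, 7.87 and 9.10 times the untreated level in DLD1, HCT116 and HCT8, a mean log2 ratio of 2.78 ± 0.51 (SD, n = 3 lines). These ratios lay at the 99.8th, 99.8th and 99.9th percentile of all genes tested in the respective line. The hypoxic and untreated groups did not overlap, a description given without the share of all genes that do so. The higher level appeared in the lines with and without BNIP3 RNA alike. BNIP3L shares 330 exonic bases with PNMA2 on the opposite strand, and since the strand of counting is not given in the sources used here, part of the reads cannot be assigned with certainty. PNMA2 itself was at 3.42, 1.77 and 62.4 CPM under hypoxia in DLD1, HCT116 and HCT8, against 331 CPM or more for BNIP3L. Untreated, it was at 27.4 CPM in HIEC6 and 23.8 in HCT8, beside 34.4 and 71.8 for BNIP3L. In untreated NCM460, DLD1 and HCT116 it was at 0.712, 1.39 and 2.05 CPM. The levels of PNMA2 and BNIP3L were thus closest in HIEC6, which limits the BNIP3 share of BNIP3L given below for that line.

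Relative to BNIP3L, per kilobase of exon (union of all annotated exons), BNIP3 stood at 35.7% in NCM460, 118% in HIEC6, 37.5% in HCT116 and 49.3% in HCT116 under hypoxia. In DLD1 and HCT8 under hypoxia it stood at 0.0269% and 0.00344%. With the length of the canonical transcript instead, a choice added after the values were seen, the first 4 shares became 78.0%, 259%, 82.0% and 108%. HIEC6 was the only library in which BNIP3 exceeded BNIP3L with both lengths, and HCT116 under hypoxia did so with the canonical length alone.

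FUNDC1, a receptor whose binding to LC3 is controlled by phosphorylation, was low in every library. It lies on the X chromosome from 44382885 to 44402105 (minus strand, GRCh37) and was at 6.04 CPM in NCM460 and 12.3 in HIEC6, and at 7.89, 8.94 and 6.69 CPM in untreated DLD1, HCT116 and HCT8. The hypoxic libraries of the same CRC lines held 8.19, 7.08 and 8.41 CPM. The hypoxic values all lay within the range of the untreated lines, and the log2 ratio averaged 0.02 ± 0.32 (SD, n = 3 lines), higher in 2 of 3 lines.

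BCL2L13, a BCL2 family member regarded as the mammalian counterpart of yeast Atg32, lies on chromosome 22 from 18111621 to 18213621 (plus strand, GRCh37). It was at 122 CPM in NCM460 and 70.8 in HIEC6, and at 130, 108 and 111 CPM in untreated DLD1, HCT116 and HCT8. Under hypoxia these CRC lines held 118, 96.6 and 124 CPM. The groups overlapped, and HIEC6 had the lowest level. Its mean log2 ratio was -0.05 ± 0.18 (SD, n = 3 lines) on CPM and 0.08 in the edgeR fit with TMM scaling, so the sign depended on the scaling.

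FKBP8, an immunophilin-like protein that also binds BCL2, lies on chromosome 19 from 18642561 to 18654887 (minus strand, GRCh37). It was at 277 CPM in NCM460 and 211 in HIEC6, and at 198, 280 and 272 CPM in untreated DLD1, HCT116 and HCT8. Under hypoxia these CRC lines held 253, 373 and 369 CPM. The ratio of hypoxic to untreated level was 1.28, 1.33 and 1.36 in DLD1, HCT116 and HCT8, the narrowest range between lines of the 9 genes (SD of log2 ratio 0.04). Each line was higher under hypoxia than untreated, although the hypoxic DLD1 library lay below untreated HCT116 and HCT8.

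PHB2, a prohibitin that scaffolds the inner membrane, lies on chromosome 12 from 7074490 to 7079943 (minus strand, GRCh37). It was at 284 CPM in NCM460 and 236 in HIEC6, and at 246, 342 and 202 CPM in untreated DLD1, HCT116 and HCT8. Under hypoxia these CRC lines held 236, 243 and 162 CPM. The hypoxic level was 0.958, 0.713 and 0.798 of the untreated level in DLD1, HCT116 and HCT8, lower in 3 of 3 lines, and the groups overlapped. The small RNA gene SCARNA12 lies within PHB2 on the same strand and was counted at 43.2 to 130 CPM, so reads may be split between them.

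PINK1, the kinase that starts the ubiquitin arm, lies on chromosome 1 from 20959951 to 20978004 (plus strand, GRCh37). It was at 61.0 CPM in NCM460 and 80.3 in HIEC6, whereas the untreated CRC lines DLD1, HCT116 and HCT8 held 37.9, 41.6 and 39.9 CPM. The hypoxic libraries of the same CRC lines held 104, 109 and 92.8 CPM. The untreated CRC lines were lowest, the normal lines between and the hypoxic CRC lines highest, without overlap. The share of all genes with groups apart in this way is not given here, so this order is a description only.

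The PINK1 ratio of hypoxic to untreated level was 2.73, 2.62 and 2.33 in DLD1, HCT116 and HCT8, a mean log2 ratio of 1.34 ± 0.12 (SD, n = 3 lines). PINK1-AS, an antisense RNA that shares 1907 exonic bases with PINK1, was at 17.7 and 5.64 CPM in NCM460 and HIEC6, at 29.6, 20.8 and 35.3 CPM in DLD1, HCT116 and HCT8, and at 30.7, 19.4 and 32.3 CPM in the same CRC lines under hypoxia. Without a known strand of counting, reads of the pair cannot be told apart. The hypoxic and untreated PINK1-AS levels of the CRC lines overlapped, unlike those of PINK1.

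OPTN, an adaptor that binds ubiquitin and LC3 after phosphorylation by TBK1, lies on chromosome 10 from 13141449 to 13180308 (plus strand, GRCh37), on the other arm of the chromosome from BNIP3. It was at 16.5 CPM in NCM460 and 25 in HIEC6, and at 31.2, 14.97 and 25.5 CPM in untreated DLD1, HCT116 and HCT8. Under hypoxia these CRC lines held 41.6, 47.2 and 75.9 CPM. All 3 hypoxic values exceeded all 5 untreated values, again without a share over all genes to set beside it. The ratio of hypoxic to untreated level was 1.33, 3.15 and 2.97 in DLD1, HCT116 and HCT8, so DLD1 differed least. OPTN shares 147 exonic bases with CCDC3 on the opposite strand, which was at 50.2, 18.4 and 0.220 CPM under hypoxia in these lines. Untreated, CCDC3 was at 57.6, 24.2 and 0.171 CPM there, at 30.7 in NCM460 and at 3.97 in HIEC6. It exceeded OPTN in both DLD1 libraries and in untreated HCT116 and NCM460, so part of the OPTN reads cannot be assigned with certainty.

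CALCOCO2, the adaptor NDP52 that also acts against intracellular bacteria, lies on chromosome 17 from 46908380 to 46943884 (plus strand, GRCh37). It was at 112 CPM in NCM460 and 48.7 in HIEC6, and at 115, 123 and 94.5 CPM in untreated DLD1, HCT116 and HCT8. Under hypoxia these CRC lines held 77.5, 105 and 110 CPM. The corresponding ratios were 0.673, 0.851 and 1.16. The ratios lay on both sides of 1, and the groups overlapped.

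**Figure D2:**
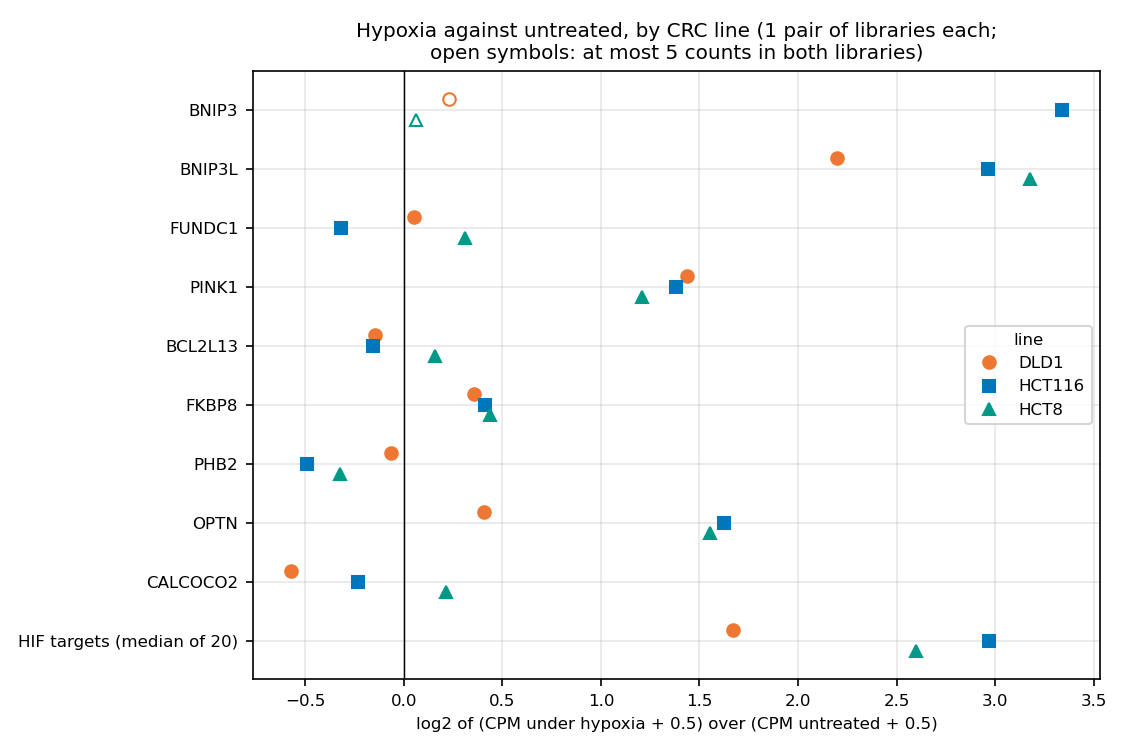
Log2 ratio of hypoxic to untreated level, with 0.5 CPM added to both, for the 9 genes and for the median of 20 HIF targets, with 1 symbol per CRC line and 1 pair of libraries each. BNIP3L, PINK1, FKBP8 and OPTN lie to the right of 0 in all 3 lines, PHB2 lies to the left in all 3, and BNIP3 lies far from 0 in HCT116 only (3.34).

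These ratios are on CPM, for which the median gene had a log2 ratio of 0 in DLD1 and HCT8 and of -0.22 in HCT116. Relative to that median, the HCT116 ratios of BCL2L13 (log2 -0.15) and CALCOCO2 (-0.23) were close to the typical gene of that line, FUNDC1 (-0.32) and PHB2 (-0.49) were lower and the other 5 genes were higher. In the edgeR fit across all genes with TMM scaling and no block, given without a test, the log2 fold change was 2.95 for BNIP3L, 1.52 for PINK1, 1.32 for OPTN, 0.57 for FKBP8, 0.13 for FUNDC1, -0.04 for CALCOCO2 and -0.14 for PHB2. For BNIP3 the fit gave 3.73, a value carried by HCT116 alone.

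Per kilobase of exon in the 5 untreated lines, FKBP8 (70.2 to 99.3 CPM per kb) and PHB2 (47.9 to 80.8 CPM per kb) were the most abundant of the 9 transcripts. BCL2L13 (9.24 to 17.0), BNIP3L (8.28 to 17.3), CALCOCO2 (5.86 to 14.8) and PINK1 (7.84 to 16.6) formed a middle range, and their ranges between lines overlapped. FUNDC1 (4.804 to 9.79), OPTN (2.91 to 6.07) and BNIP3 (0 to 9.81) were lowest in the 4 lines other than HIEC6, again with overlapping ranges, whereas in HIEC6 BNIP3 and FUNDC1 lay above BCL2L13, BNIP3L and CALCOCO2. FKBP8 and PHB2 led with the canonical transcript length too, at 112 to 159 and 147 to 248 CPM per kb, with PHB2 above FKBP8 in each untreated line but HCT8, and only 32 of the 72 ranks of genes within libraries stayed the same with that length. Under hypoxia BNIP3L moved to the second place in DLD1 (79.9 CPM per kb) and HCT116 (96.0) and to the first in HCT8 (158), where FKBP8 stood at 131. With the canonical length it held rank 3 in DLD1, rank 4 in HCT116 and rank 2 in HCT8.

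The 8 genes other than BNIP3 were then compared between CRC and normal lines. With edgeR's quasi-likelihood test on 5 untreated libraries, 0 of these 8 genes passed an adjusted p of 0.05, and neither did any other gene, so that the share called was 0% of 19964 genes tested. An unadjusted p under 0.05 was found for 542 genes and DESeq2 called 143. PINK1 was the member with the largest fold change tested, at a log2 fold change of -1.03 (SE 0.308, edgeR adjusted p = 0.999, DESeq2 adjusted p = 0.227), lower in each of the 3 CRC lines than in both normal lines. Its fold change was -1.27 without NCM460 and -0.72 without HIEC6. At this number of lines the difference did not pass the test.

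BNIP3L had a log2 fold change of 0.41 (SE 0.317) between CRC and normal lines, 0.64 without NCM460 and 0.22 without HIEC6. For CALCOCO2 the value was 0.32 (SE 0.414), which became 0.94 without NCM460 and -0.10 without HIEC6. FUNDC1 stood at -0.43 (SE 0.586) and changed from -0.90 to 0.28 between the same exclusions. HIEC6 differed most from the other lines in these genes, with the highest FUNDC1 and the lowest BNIP3L and CALCOCO2 level of the 5. BCL2L13 (0.11, SE 0.315), FKBP8 (-0.14, SE 0.289), PHB2 (-0.15, SE 0.356) and OPTN (-0.01, SE 0.481) differed by less than their standard errors. For BNIP3, described without a test, the groups overlapped because HCT116 lay between the normal lines and the other two CRC lines had 0 counts.

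To place the receptors in the hypoxia response of these cells, lists of other genes were read from the fit over the 6 CRC libraries. The lists were chosen with earlier results of these data known, so their calls describe the response and are no independent test of it. Without the cell line as a block, edgeR called 0 of 21045 genes (0%), with 607 at an unadjusted p under 0.05 and 55 called by DESeq2. The replicate number of a CRC library is its cell line, and with the line as a block edgeR called 156 genes higher (0.741%) and 44 lower (0.209%). Of 20 known HIF targets, a list that does not contain BNIP3 or BNIP3L, 15 were higher under hypoxia with the block and 0 without it, and the median log2 fold change was 2.61 with the block and 2.81 without, against 0.03 and 0.06 over all genes tested. Without the HCT8 pair of libraries the fit with the block called 3 of the 20, without the DLD1 pair 20 and without the HCT116 pair 18.

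The largest block estimates among the 15 called targets were 7.0 for CA9, a carbonic anhydrase, 5.38 for ANGPTL4, a secreted lipase inhibitor, 4.37 for NDRG1, a stress response gene, and 3.66 for EGLN3, an oxygen-sensing prolyl hydroxylase. Their edgeR adjusted p with the block were 0.00447, 0.0113, 0.00462 and 0.000809. The untreated CRC libraries held only 1 to 6 counts of CA9, so its estimate depends on the prior count of the fit. EGLN3 went from 10.4 to 106 CPM in DLD1, from 6.28 to 80.1 in HCT116 and from 10.8 to 128 in HCT8. The 5 HIF targets not called were ADM (log2 fold change 3.26), ANKRD37 (5.13), DDIT4 (1.90), SLC2A1 (1.81) and VEGFA (1.32). Among the cell type markers the fit with the block called KRT19 of 12 epithelial and FN1 of 11 mesenchymal genes higher, and 0 of 9 neural genes, of which 4 could be tested.

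Both lines with almost no BNIP3 RNA shared in this response. The median log2 ratio of the 20 HIF targets was 1.67, 2.97 and 2.60 in DLD1, HCT116 and HCT8, with 19, 20 and 20 of the genes higher. The BNIP3L ratio was exceeded by 6 of the 20 targets in DLD1, 10 in HCT116 and 6 in HCT8, and the BNIP3 ratio in HCT116 was exceeded by 9. In HCT116 BNIP3 and BNIP3L thus lay in the middle of the HIF targets, whereas in DLD1 and HCT8 the BNIP3 ratio was exceeded by 18 and 20 of them, on a scale with 0.5 CPM added.

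The remainder of the mitophagy and autophagy machinery gave no calls by edgeR in the fits over the 6 CRC libraries. Among 91 further genes in 6 lists, 90 of them tested, 0 passed the adjusted threshold with or without the block. With the block 0.741% of all genes were called higher and 0.209% lower, so 0 of 90 was near the share over all genes. Once the HCT116 pair was left out, 4 passed with the block, beside 738 of all 19513 genes tested. DESeq2 called 0 without the block and 12 of the 90 with it, a fit in which it called 7.92% of all genes, 4.54% higher and 3.38% lower. Unadjusted p-values under 0.05 by edgeR were found for 28 of the 90 with the block, beside 18.5% of all genes tested, and for 2 without it, beside 2.88%. The list medians lay between -0.08 and 0.11 with the block except for the genes of mitochondrial content, against 0.03 over all genes.

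In the ubiquitin arm (18 genes for ligases, adaptors, deubiquitinases and their substrates) the median log2 fold change was 0.07 with the block, 11 of 18 positive. SQSTM1, the adaptor p62, was at 550, 469 and 731 CPM in untreated DLD1, HCT116 and HCT8 and at 365, 424 and 399 CPM under hypoxia, and its log2 fold change of -0.40 did not pass (edgeR adjusted p with the block 0.394). TAX1BP1, a relative of CALCOCO2, had a log2 fold change of 0.73 (adjusted p = 0.0989 by edgeR with the block and 0.00527 by DESeq2 with the block).

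Among 7 further receptors and their paralogs the median was -0.08 with the block, and PHB1, the partner of PHB2 in the prohibitin ring, stood at -0.59 (edgeR adjusted p with the block 0.186), with 286, 361 and 239 CPM untreated and 242, 138 and 165 CPM under hypoxia in DLD1, HCT116 and HCT8. Among 12 regulators of the receptors the median was 0.06, and DESeq2 with the block called BCL2 (log2 fold change -1.55, adjusted p = 2.11e-05), which binds BNIP3, and PGAM5 (-0.82, adjusted p = 0.0336), a phosphatase of FUNDC1, both lower. These were 2 of the 12, beside 3.38% of all genes called lower in that fit. In the 31 genes of the autophagosome core, 30 of them tested, the median was 0.11 and DESeq2 with the block called 4 of the 30 higher (4.54% of all genes), GABARAPL1 (log2 fold change 0.87), ULK1 (0.76), WIPI1 (0.67) and ATG9A (0.53).

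The 11 genes for factors that act at the BNIP3 promoter and for DNA methylation enzymes were all counted in DLD1 and HCT8, the lowest being DNMT3B with 295 counts in untreated DLD1, and the median log2 fold change of the list under hypoxia was -0.04 with the block. The estimates lay in both directions, 4 positive and 7 negative, and edgeR with the block called 0 of the 11. An unadjusted p under 0.05 in that fit was found for 8 of the 11, beside 18.5% of all genes. The list was chosen with earlier results of these data known, so this share is a description only. Of these 8, EPAS1, ARNT, FOXO3 and PPARA had positive estimates and PLAGL2, E2F1, DNMT1 and UHRF1 negative ones. HIF1A was at 163 CPM in DLD1, 158 in HCT116 and 112 in HCT8 untreated, and at 159, 103 and 126 CPM under hypoxia. The maintenance methyltransferase gene DNMT1 was at 297, 264 and 276 CPM untreated and 279, 121 and 181 CPM under hypoxia in the same order. The de novo enzyme gene DNMT3B was at 5.76, 34.0 and 24.2 CPM untreated, lowest in DLD1. EPAS1, the gene of HIF-2 alpha, had a log2 fold change of 0.91 under hypoxia (adjusted p = 0.101 by edgeR and 0.0124 by DESeq2, both with the block). UHRF1, a cofactor of DNMT1, stood at -0.97 by edgeR with the block (adjusted p = 0.125) and was called lower by DESeq2 with the block (log2 fold change -0.94, adjusted p = 0.0258).

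Genes of general mitochondrial content were the list with the lowest median, -0.34 with the block, with 9 of 12 negative and 0 called by edgeR. By DESeq2 with the block the mitochondrial chaperonin HSPE1 (log2 fold change -1.35), the biogenesis coactivator PPARGC1B (-1.32) and the mitochondrial transcription factor TFAM (-0.72) were lower. These were 3 of the 12, beside 3.38% of all genes called lower in that fit. The median log2 ratio of the list on CPM differed by line, at -0.17 in DLD1, -0.67 in HCT116 and -0.50 in HCT8. Over all genes tested it was 0, -0.22 and 0.

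**Figure D3:**
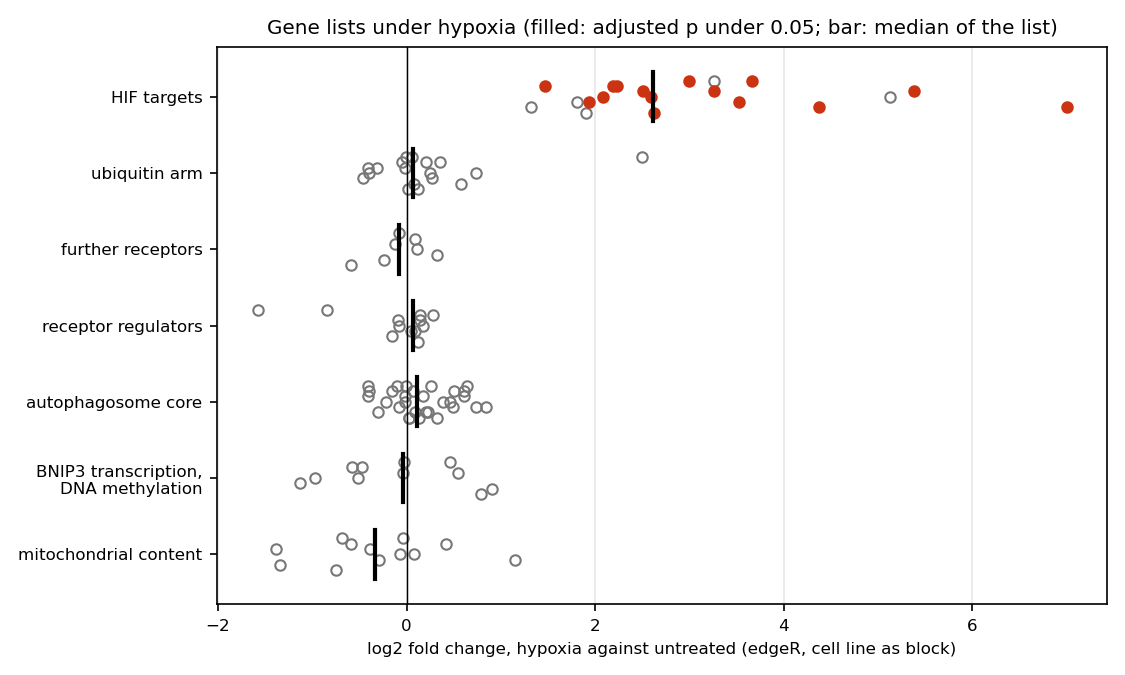
Log2 fold change between hypoxia and untreated CRC lines in the edgeR fit with the cell line as a block, 1 point per gene for 7 gene lists, with filled red points for an adjusted p under 0.05 and a bar at the median of each list. The HIF targets lie to the right with 15 filled points, and the 6 mitophagy and autophagy lists have no filled point, with the median of mitochondrial content at -0.34 and the other 5 medians between -0.08 and 0.11.

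The genes next to BNIP3 were examined to see whether the lack of reads extended to them. All 6 protein-coding genes that start within 500 kb of the BNIP3 start were in the table. PPP2R2D, a phosphatase subunit gene that starts 47.5 kb away, was at 62.3 CPM in DLD1 and 52.0 in HCT8, above the 23.4 to 28.6 CPM of HCT116, NCM460 and HIEC6. PWWP2B, 415 kb away, was at 64.0 and 53.0 CPM in DLD1 and HCT8, against 17.8 to 25.6 CPM. Genes on both sides of BNIP3 thus had reads in the lines without BNIP3 reads, and these genes were at higher levels there than in the other lines.

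DPYSL4, a dihydropyrimidinase-like gene whose start lies 205 kb from that of BNIP3, was the exception among the 6. Its count was 96 in NCM460, 55 in HIEC6 and 202 in HCT116, and 0 in both DLD1 and HCT8. Under hypoxia it was 924 in HCT116, 0 in DLD1 and 10 in HCT8. In CPM, HCT116 went from 3.87 to 16.7. As for BNIP3, hypoxic HCT116 was the highest of the 8 libraries, but HIEC6 was below NCM460 and HCT116, and hypoxic HCT8 was above hypoxic DLD1. JAKMIP3, which lies between BNIP3 and DPYSL4, was low in most libraries, with 21 counts in DLD1, 24 in HCT8, 15 in HCT116, 29 in NCM460 and 304 in HIEC6.

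STK32C was at 7.77 CPM in DLD1 and 29.5 in HCT8, and LRRC27 at 5.33 and 8.95 CPM, so neither shared the pattern of BNIP3. In total 5 of the 6 neighbours exceeded 3 counts in DLD1, in HCT8 and in DLD1 under hypoxia, and 6 did so in the other 5 libraries.

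**Figure D4:**
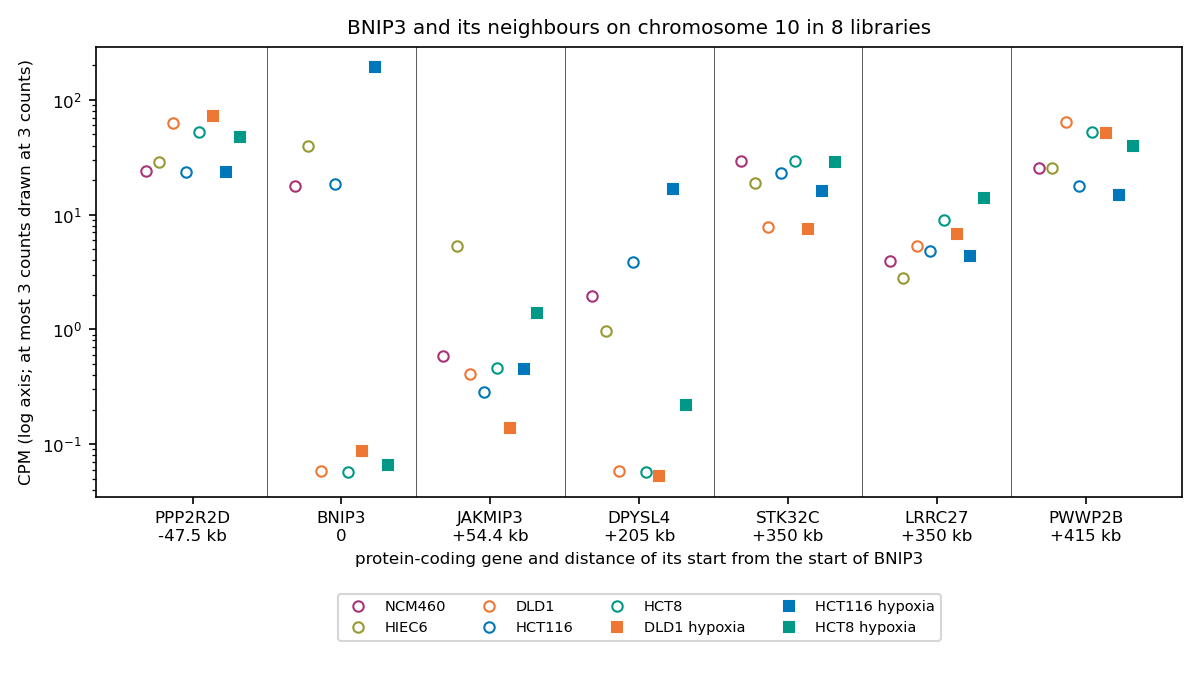
CPM (log axis) of BNIP3 and the 6 protein-coding genes that start within 500 kb of it, by distance from its start in kb, with 1 point per library, open circles for untreated and filled squares for hypoxic libraries. DLD1 and HCT8 sit at the 3-count limit or at most at 0.220 CPM for BNIP3 and DPYSL4 and among the higher points for PPP2R2D and PWWP2B.

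Among 14913 genes with a mean of at least 1 CPM and at least 10 counts in 2 or more libraries, the patterns most like that of BNIP3 over the 8 libraries, by Pearson correlation of log2(CPM + 0.5), were those of LOXL2 (r = 0.996), FAT4 (0.984), LOC284930 (0.984), ANKRD33B (0.980) and ANO6 (0.980). LOXL2, a lysyl oxidase-like enzyme gene, was at 0.488 CPM in DLD1, 0.646 in HCT8, 50.5 in NCM460, 182 in HIEC6, 41.9 in HCT116 and 525 in HCT116 under hypoxia. ANO6, a membrane scramblase gene, was at 0.117 CPM in DLD1 and 0.0380 in HCT8, and at 124 to 142 CPM in the other 3 untreated lines. The 8 libraries come from 5 lines, and DLD1 and HCT8 give 4 of the 8 points, so these values describe the separation of lines. With an offset of 0.1 or of 1 CPM, 3 of the 5 genes remained among the top 5, and with Spearman's rho 0 did.

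The other 8 receptors and adaptors were set beside BNIP3 across the libraries as a description. The set was chosen in part for the lack of BNIP3 reads in DLD1 and HCT8, so these correlations largely restate that choice. In HCT116 BNIP3 and BNIP3L were both higher under hypoxia (10.3-fold and 7.87-fold). The correlations with BNIP3 were 0.53 for PHB2, 0.29 for PINK1, 0.23 for FKBP8, 0.14 for FUNDC1, -0.15 for CALCOCO2, -0.22 for BNIP3L, -0.32 for OPTN and -0.64 for BCL2L13. In untreated cells the level of each of these 8 genes varied by at most 2.53-fold between the 5 lines, with FKBP8 the steadiest at 1.42-fold. Over all 8 libraries the range was 19.0-fold for BNIP3L, 5.07-fold for OPTN and 2.88-fold for PINK1, and at most 2.53-fold for the other 5.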

How the data were processed

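Total RNA was depleted of ribosomal RNA and sequenced, and the authors deposited 1 table of raw counts per gene for 8 libraries, without normalization. The study's methods name GRCh37.p13, whereas the submitters' processing notes name HISAT2 2.0.4 and GRCh38, so the build behind the counts is uncertain. The counter, its strand setting and its use of reads with several matches are not given in the sources used here. Gene positions and lengths are those of GENCODE 44 lifted to GRCh37, and promoters those of RefSeq on GRCh38, matched exactly to GRCh37.

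All 8 columns were used (0 left aside), with groups, lines and replicate numbers from the labels. CPM was computed by column total. A gene entered a fit when 2 or more of its libraries had 10 or more counts, and was tested with edgeR 4.0.16 (glmQLFit and glmQLFTest, TMM, Benjamini-Hochberg threshold 0.05) in R 4.3.3, and the SE was the log2 fold change over the root of F. Alternatives were DESeq2 1.42.0, limma-trend (limma 3.58.1), upper-quartile scaling, other filters, all 8 libraries in 1 fit, the replicate block and each library left out. The scripts were tested on simulated data. In the hypoxia comparison the replicate number is the cell line and pairs the samples. After subtraction of the group means, the 2 libraries of DLD1, HCT116 and HCT8 correlated at 0.807, 0.84 and 0.793, and libraries of different lines at -0.594 to -0.0532. Between CRC and normal lines equal numbers belong to different lines and give no pairing.

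The members and the gene lists were chosen with earlier results of these data known. Named genes are the members, genes of the lists past the threshold with the block (the 4 with the largest fold change where there are more) or defining a list, the 5 genes most like BNIP3 in pattern, and coding genes that start within 500 kb of it. Of the list genes without a call, those singled out in the text (among them TAX1BP1, PHB1, EPAS1 and the genes called by DESeq2) were chosen after their values were seen. MARCHF5, PHB1 and NIPSNAP2 were among the genes matched through older symbols. The values of 1 gene of the lists are not reported here.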

Additional observations from a re-analysis of the deposited data

How the results depend on the processing

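Counts of 45519306 or more per library bounded the silent genes tightly, and the 1 library per line and condition limited every test. For genes that differed between CRC and normal lines (0 by edgeR), DESeq2 called 143 and every other alternative 0, and each library left out gave 0. For hypoxia (0 by edgeR without a block), DESeq2 called 55, the replicate block 200 and the block with DESeq2 1666. In fits added after the data were seen, the block without the DLD1, HCT116 or HCT8 pair called 292, 738 and 6 genes. The other alternatives, each library left out among them, called 0. Calls among the 20 HIF targets were 14 (DESeq2), 15 (block), 19 (block with DESeq2), and 20, 18 and 3 (block without the DLD1, HCT116 and HCT8 pair). Calls among the 6 mitophagy and autophagy lists were 12 (block with DESeq2) and 4 (block without the HCT116 pair), and 0 otherwise. The likeness list shared 3 genes with offsets of 0.1 and of 1 CPM and 0 with Spearman's rho. The cause of these differences was not tested, beyond the fewer libraries of the fits that leave 1 pair out.

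Between CRC and normal lines the replicate block, in which numbers join different lines, turned PHB2 to 0.0351, and OPTN became 0.0139 with at least 10 counts in every library and 0.10 with upper-quartile scaling. With each library left out in turn, log2 fold changes ranged from -0.90 to 0.28 for FUNDC1, from -0.17 to 0.45 for BCL2L13, from -0.43 to 0.0577 for PHB2, from -0.34 to 0.42 for OPTN and from -0.10 to 0.94 for CALCOCO2, and PINK1 stayed between -1.27 and -0.72. The block changed no call in that comparison. Of 27 group means of the members, 26 moved by less than 1 SD with TMM library sizes.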

Other observations

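A pattern noticed after the values were seen concerned the sum of BNIP3 and BNIP3L. In the 5 untreated lines the sum was 69.4 and 74.1 CPM in NCM460 and HIEC6 and 71.8, 69.2 and 71.8 CPM in DLD1, HCT116 and HCT8, a coefficient of variation of 2.82%, although BNIP3 itself ranged from 0 to 39.7 CPM. The narrow range depended on the scale. The coefficient of variation was 3.03% per kilobase of all exons, 10.8% with TMM library sizes and 23.4% per kilobase of the canonical transcript. Under hypoxia the sum was 332 CPM in DLD1, 590 in HCT116 and 654 in HCT8.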
